A study of Mus musculus with 5 samples.

Results

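Very long genes are defined here as the autosomal protein-coding RefSeq genes of the mm10 mouse genome that span more than 600 kb, and 145 of 20665 such genes met that limit. The body of a gene is its span without the outer 5 kb at each end. Spans ran from 601.936 kb in Hpse2 to 2270.51 kb in Ptprd, with a median of 898 kb. The bodies held 7215 measured tiles, which are windows of 1000 bp with at least 3 well-covered CpGs, of 134735 tiles in the genome. They were compared with 7482 tiles in bodies of genes spanning 50 to 100 kb, a class of 2412 genes of which 2098 had a tile, and from these 20 tiles that also lie in a very long body were left out. All 145 bodies had a value, with 15 to 145 tiles each and a median of 46.

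The study measured DNA methylation by whole-genome bisulfite sequencing of sperm from C57BL/6 mice. Sperm were collected by swim-out from the cauda epididymis, where sperm are stored, into Tyrode's solution. Young mice were 2 months old (3 libraries, young replicates 1 to 3) and old mice were 18 months old (2 libraries, old replicates 1 and 2). The labels give no genotype or treatment beyond strain and age. They do not tie libraries to individual mice, so a p-value here reflects only how these libraries vary, which may be technical. Reads over listed CpG cytosines summed to between 67774094 and 97769462 per library. The sperm label was not checked by a defining marker. The less methylated ends of 12 genes that are imprinted in oocytes were at 52.7%; 5 of the 12 were under 50% and 3 were over 90% in every library. These ends were picked by their level and are not control regions, so they bear on the label in neither direction.

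Genes of this length are few, and most of their span is intron. Many of them encode adhesion molecules, ion channels and guidance receptors of neurons, and several lie at common fragile sites, places where chromosomes tend to break under replication stress. In mammalian sperm most CpGs outside CpG islands are methylated, while CpG-rich promoters, including those of shorter transcripts that begin far inside a long gene, are usually free of methylation.

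Some of the least methylated places inside these bodies lie at internal transcription starts, and 6 sequences before such starts are shown because the levels there range from near 0% to near 100%. Each is the stretch of 250 bases directly before a RefSeq start on GRCm38.p6, written 5′ to 3′ on the strand of transcription, with every CG in capitals. They were chosen after their values were seen. Nrxn3 encodes neurexin 3, a presynaptic adhesion molecule (chr12:89812233-89812482, plus strand). Rbms3 encodes an RNA-binding protein (chr9:117252484-117252733, minus strand). Esrrg encodes an orphan nuclear receptor (chr1:187651991-187652240, plus strand), and Anks1b an ankyrin-repeat protein of the synapse (chr10:90576441-90576690, plus strand). Tenm3 encodes a teneurin, a transsynaptic adhesion molecule (chr8:48674691-48674940, minus strand). Gm17160 is a gene model inside Mast4, which encodes a kinase (chr13:102762063-102762312, plus strand).
Nrxn3: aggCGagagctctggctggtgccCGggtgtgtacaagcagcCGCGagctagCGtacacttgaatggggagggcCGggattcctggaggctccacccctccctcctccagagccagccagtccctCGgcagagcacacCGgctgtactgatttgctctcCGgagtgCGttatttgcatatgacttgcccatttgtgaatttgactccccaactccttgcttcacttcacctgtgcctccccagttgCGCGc
Rbms3: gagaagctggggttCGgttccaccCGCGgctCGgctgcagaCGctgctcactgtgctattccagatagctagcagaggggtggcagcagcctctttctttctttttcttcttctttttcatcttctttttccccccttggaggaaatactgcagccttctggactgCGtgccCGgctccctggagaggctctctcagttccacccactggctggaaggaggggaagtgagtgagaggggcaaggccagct
Esrrg: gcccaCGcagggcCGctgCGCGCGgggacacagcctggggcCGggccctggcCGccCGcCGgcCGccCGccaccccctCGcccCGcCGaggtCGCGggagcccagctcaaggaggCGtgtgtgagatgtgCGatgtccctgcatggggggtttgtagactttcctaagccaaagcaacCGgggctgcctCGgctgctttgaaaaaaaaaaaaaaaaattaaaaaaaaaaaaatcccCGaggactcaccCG
Anks1b: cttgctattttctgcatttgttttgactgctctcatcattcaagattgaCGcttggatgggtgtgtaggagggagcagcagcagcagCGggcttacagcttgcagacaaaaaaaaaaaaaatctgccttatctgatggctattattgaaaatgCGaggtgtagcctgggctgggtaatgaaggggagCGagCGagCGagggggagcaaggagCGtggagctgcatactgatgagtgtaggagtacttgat
Tenm3: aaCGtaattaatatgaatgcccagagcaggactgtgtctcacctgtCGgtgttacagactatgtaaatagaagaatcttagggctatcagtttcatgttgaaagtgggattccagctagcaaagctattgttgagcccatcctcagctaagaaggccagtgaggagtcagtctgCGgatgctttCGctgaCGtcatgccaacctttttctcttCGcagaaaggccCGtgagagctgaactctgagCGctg
Gm17160: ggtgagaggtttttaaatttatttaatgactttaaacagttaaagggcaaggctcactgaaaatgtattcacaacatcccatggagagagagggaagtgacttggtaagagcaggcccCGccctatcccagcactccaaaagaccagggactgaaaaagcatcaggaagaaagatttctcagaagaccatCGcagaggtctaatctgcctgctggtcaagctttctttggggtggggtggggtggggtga

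The stretches before the Nrxn3, Rbms3, Esrrg and Anks1b starts hold 12, 7, 22 and 7 CG. Those before the Tenm3 and Gm17160 starts hold 8 and 2. The motif CG reads the same on both strands and does not overlap itself. Of 31396 autosomal stretches of this length in the RefSeq promoter table, 92.4% hold at least 1 CG, the median is 6, and 38.3% hold 10 or more. The table has no entries for chromosome 18, so starts on it were not used here.

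Methylation around these starts, over every listed CpG within 500 bp that had reads in all libraries, fell at both extremes. At the Rbms3 start, on 24 CpGs and 1720 to 2185 reads per library, it was 0.644%, 0.739% and 0.641% in the young libraries and 0.838% and 0.930% in the old ones. At the Nrxn3 start it was 0% in every library but old replicate 1, at 2.20%, on 74 to 102 reads. The Esrrg start was likewise at 0% in 4 libraries and at 2.68% in old replicate 1. The Anks1b start was at 6.73% to 8.90%. By contrast the Tenm3 start was at 81.0%, 76.3% and 88.0% in young and 83.2% and 81.2% in old libraries, although its stretch has 1 CG more than that of Rbms3. The Gm17160 start was at 96.2% to 98.2%. The ranges of the ages overlapped at each of these starts except that of Rbms3. The tile at the Rbms3 start had an unadjusted p of 0.364 in the quasi-binomial model of age described below. Over all tiles, the ages do not overlap in 17.1%.

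Among the measured starts inside very long bodies, a small part of those listed, the level was lowest where the preceding stretch held most CG. The 5 measured starts with 10 or more CG, out of 42 listed, were all under 10%, but they lie in only 2 bodies, Esrrg and Nrxn3, and 4 of them share CpGs in Esrrg. Of 5 measured starts with 5 to 9 CG, 3 were under 50%. Of 17 with fewer than 5 CG, 12 were over 80% and the median was 94.6%. In bodies of 50 to 100 kb, 7 of 12 measured starts with 10 or more CG were under 50%, 2 of them under 10%, and 1 was over 80%. Of 17 measured starts there with 5 to 9 CG, 1 was under 50% and 8 were over 80%. This search was made after the low tiles had been seen and is given as a description.

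Very long bodies were highly methylated in every library. The mean over their tiles in young replicates 1 to 3 was 92.3%, 92.6% and 91.1%, and in both old libraries it was 92.1%. Young replicate 2 was highest and young replicate 3 lowest, and both old libraries lay between them. The mean of the 3 young libraries was 92.0% ± 0.778 (SD) and that of the 2 old ones 92.1% ± 0.0107 (SD), which differ by 0.0513 percentage points (two-sided exact permutation test over 10 splits, p = 1; the smallest this design allows is 0.1). Without young replicate 3 the difference turned to -0.390 points, and without young replicate 2 it was 0.343.

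The comparison with genes of 50 to 100 kb asked whether span goes with the level of the body. The 50 to 100 kb bodies were at 92.7%, 93.4% and 91.5% in young and 92.7% and 92.6% in old libraries. Within each library the very long bodies were lower: the very long minus the 50 to 100 kb level was -0.351, -0.808 and -0.417 points in the young libraries, then -0.599 and -0.562 in the old ones. The mean gap was -0.547 points, and all 5 libraries had the same direction (two-sided exact sign-flip permutation test, p = 0.063, the smallest that 5 libraries allow). The gap did not differ between the ages beyond the spread, at -0.525 ± 0.247 points over the 3 young and -0.581 ± 0.0256 over the 2 old libraries (SD; exact permutation test, p = 0.9).

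The gap was small against the course of methylation over span, and its sign depended on the class chosen for comparison. The mean of 5 libraries was 91.8% in genes of 20 to 50 kb, 92.6% at 50 to 100 kb, 93.0% at 100 to 200 kb, 92.9% at 200 to 400 kb, 92.4% at 400 to 600 kb and 92.0% over 600 kb. The highest level was thus at intermediate spans in every library. Against genes of 20 to 50 kb the very long bodies were higher, by 0.279 points, and against genes of 100 to 200 kb the gap was -1.01 points. The 55 genes over 1000 kb were at 92.2%.

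**Figure D1:**
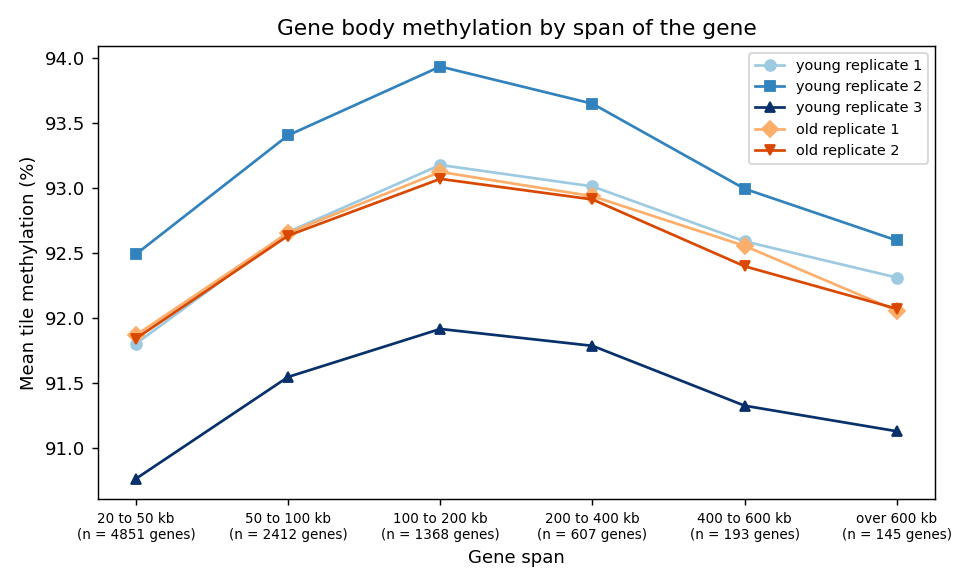
Mean tile methylation of gene bodies (y axis, percent; the axis does not start at 0) by class of gene span (x axis), with 1 line per library. In each of the 5 libraries the level rises from 20 to 50 kb to a maximum at 100 to 200 kb and falls to between 91.1% and 92.6% over 600 kb.

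The classes also differed in which CpGs were measured. Very long bodies had 5.00 listed CpGs per kb, against 6.14 in bodies of 50 to 100 kb, but 7.63% of the listed CpGs were well covered in all libraries, against 5.89%. Their tiles held 4.28 CpGs on average, against 4.89. The median range of a tile over the 5 libraries was 5.12 points in very long bodies and 4.60 in the others. With the 50 to 100 kb tiles weighted to the CpG numbers of the very long bodies the gap was -0.688 points, from -0.985 to -0.500 over the libraries. With a minimum of 20 reads per CpG it was -0.878, and weighted by reads -0.985.

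The gap was wider the more CpGs a tile held. In tiles with 3 CpGs the very long bodies were at 92.9% and so were the 50 to 100 kb bodies, with a mean gap of 0.00045 points and both signs among the libraries. With 4 CpGs the gap was -0.539 points, with 5 to 6 it was -0.993, and with 7 to 9 it was -2.54. In tiles with 10 or more CpGs, 161 in very long and 362 in 50 to 100 kb bodies, the levels were 80.6% and 88.0%. There the gap was -7.50, -8.83 and -6.18 points in the young libraries, and -7.30 and -7.45 in the old ones. From 4 CpGs upward all 5 libraries had the same direction (exact sign-flip permutation test, p = 0.063 in each of these 4 classes and p = 1 with 3 CpGs; no adjusted value can fall under these). Of the tiles with 10 or more CpGs, 11.8% were under 50% in all libraries in very long bodies and 6.08% in the others.

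**Figure D2:**
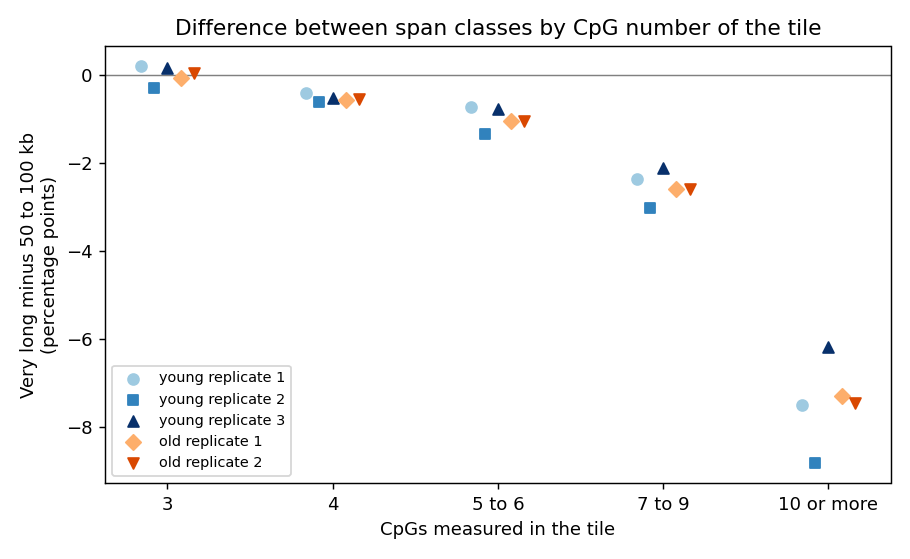
Methylation of very long bodies minus that of 50 to 100 kb bodies in the same library (y axis, percentage points) by the number of CpGs measured in the tile (x axis), with 1 point per library. Points lie around 0 with 3 CpGs and between -8.83 and -6.18 with 10 or more.

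Part of the gap came from a single locus. Gm37013, Gm38666 and Gm38667 are RefSeq gene models on chromosome 18 that span the clustered protocadherins, genes whose many alternative first exons give neurons different adhesion molecules. The models share nearly all their tiles, so they are not separate observations. Their 62 tiles were at 74.7%, 73.6% and 75.6% in young and 75.7% and 75.3% in old libraries, and 10 of the 62 were under 50% in all libraries. Without these models the gap to 50 to 100 kb bodies was -0.400 points, from -0.644 to -0.198 over the libraries, and in tiles with 10 or more CpGs it was -6.36.

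Low tiles were few and spread over many of the genes. In very long bodies 79 tiles, 1.09%, were under 50% in all 5 libraries, against 77, 1.03%, in 50 to 100 kb bodies. They lay in 47 of 145 bodies, a count that includes each of the 3 protocadherin models although these share tiles. Among 50 to 100 kb bodies with 5 or more tiles, 29 of 597 held such a tile. Those bodies had a median of 6 tiles, against 46 in very long bodies, so the counts cannot be set side by side. Of the 79 low tiles in very long bodies, 14 were under 10% in all libraries. Per library the share under 50% was 1.86%, 2.16% and 1.28% in young and 1.83% and 1.61% in old libraries. It was 0.134 points higher than in 50 to 100 kb bodies on average (exact sign-flip permutation test, p = 0.063), and without the 3 protocadherin models the difference was -0.00695 points. The share of tiles at 90% or more was 81.0%, against 82.7%.

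The lowest tiles included some in genes of synapses and signalling. On mm10, a tile in Esrrg (chromosome 1, 187652001 to 187653000) was at 0% in every library on 48 to 74 reads, which for 48 reads allows a level of up to 6.25%. In Nrxn3, neighbouring tiles (chromosome 12, 89812001 to 89814000) were at 0.198% and 2.44%. Nrxn3 is known for a promoter far inside the gene that gives the short beta form of the protein, and the first of its tiles overlaps the start whose sequence is printed above.

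The other tiles under 10% lay in genes of several kinds. The tile in Rbms3 with 23 CpGs (chromosome 9, 117252001 to 117253000) was at 0.661% ± 0.0239 over the 3 young and 0.831% ± 0.0163 over the 2 old libraries (SD), from 1708 to 2168 reads in each. Tiles in Trpm3, encoding a cation channel, Lrrc4c, encoding a netrin-G ligand, and Pde4d, encoding a cyclic AMP phosphodiesterase, were at 1.15%, 1.17% and 1.18%. A pair of neighbouring tiles in Tenm2, another teneurin gene, was at 1.41% and 1.36%, with old replicate 1 at 4.17% and 4.44% and the other libraries at 1.19% or below. Nrg1, encoding the growth factor neuregulin 1, had 3 tiles between 3.49% and 8.04%. The Kcnip4 and Anks1b tiles were at 4.87% and 8.54%.

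Few of the low tiles lay at a listed start. Of very long tiles off chromosome 18, 23 overlapped or lay within 500 bp of a listed start, at a mean of 66.0%, and 5 of the 23 were low. Tiles more than 5 kb from a start were at 92.3%, and 59 of them were low, 86.8% of the low tiles counted. The Lrrc4c tile lay 1148832 bp and the Pde4d tile 179926 bp from the nearest start in the table. In 50 to 100 kb bodies 65 tiles lay at a start, at 74.7%, and 10 of them were low. The promoter table does not list every start, and the genome annotation used here gives no exons or CpG islands.

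Levels by distance to the nearer end lay within a narrow range. Tiles 5 to 25 kb from the nearer end were at 91.8%, those at 25 to 100 kb at 91.9%, those at 100 to 200 kb at 92.0% and those beyond 200 kb at 92.1%. In the 113 genes with a known strand, the body split into 5 equal parts from start to end was at 92.7%, 92.6%, 91.7%, 92.6% and 92.3%. The middle part was the lowest in all 5 libraries, and 1.39% of its tiles were under 50% in all libraries, against 0.621% in the part next to the start. The ends that the body leaves out differed from each other. Within 1000 bp of the start, over every listed CpG, 70 genes were at 40.0% and 36 of them were under 50% in every library, while 99 genes were at 91.1% around the far end and 0 were under 50% in every library. Alk, Lrrc4c and Spag16 had far ends with a mean under 50%, at 42.7%, 46.1% and 49.9%. With well-covered CpGs alone, 8 starts were at 19.3% and 14 far ends at 93.1%.

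The 145 bodies ranged from 75.0% to 97.0% with a median of 92.7%, and 121 of them were at 90% or more. The highest was Exoc4, which encodes a subunit of the exocyst that tethers vesicles (chromosome 6, 33249090 to 33973979). It was at 97.3%, 97.4% and 96.5% in young and 96.9% and 97.0% in old libraries. Ptprg, a receptor phosphatase gene, and Pard3b, a cell polarity gene, followed at 96.4% each, Mast4 at 95.6%, and Ntm, an adhesion gene, at 95.5%. Below the 3 protocadherin models came Ralyl, encoding an RNA-binding protein (chromosome 3, 13471655 to 14182287), at 84.7%, 83.6% and 84.0% in young and 84.7% and 83.8% in old libraries. Nrg1 followed at 86.1%. The median tile of Ralyl was at 92.7% and that of Nrg1 at 92.8%, both well above the mean of the body, and they had 4 and 5 tiles under 50% in all libraries. Tenm3, with 6 such tiles, was at 87.1% with a median tile of 95.6%.

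**Figure D3:**
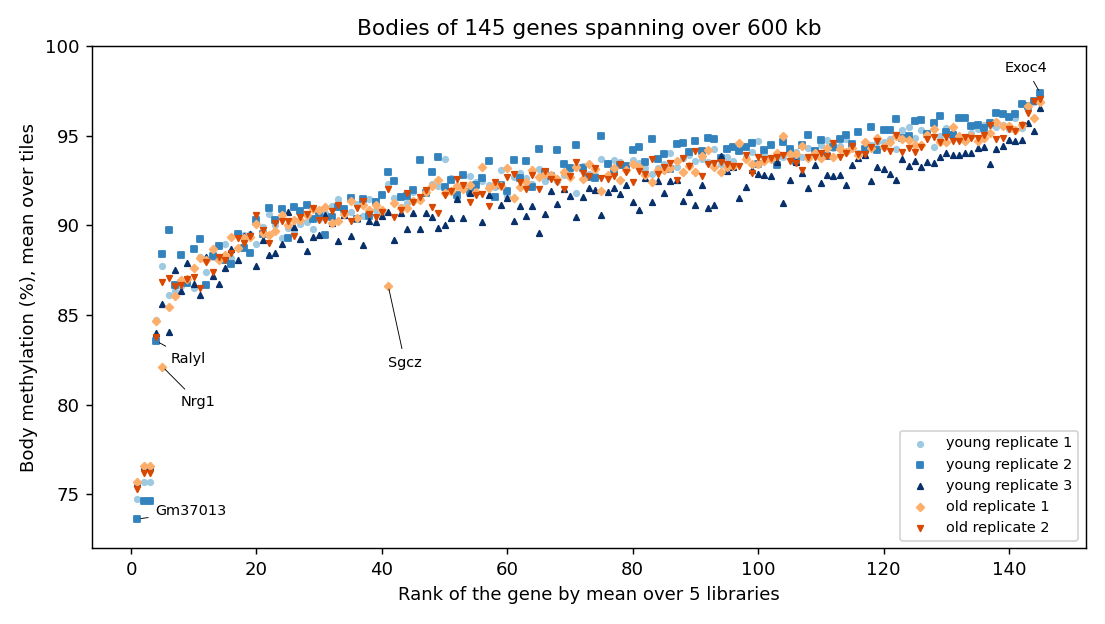
Body methylation (y axis, percent, mean over the tiles of the body; the axis does not start at 0) of the 145 very long genes, ordered by their mean over 5 libraries (x axis), with 1 point per library. Most genes lie between 90% and 97%, the 3 models over the clustered protocadherins lie near 75%, and old replicate 1 stands below the other libraries in Nrg1 and Sgcz.

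The limit of 600 kb did not mark a step. Just inside it, Hpse2 at 601.936 kb was at 94.4%, Mast4 at 95.6% and Kalrn at 93.9%. Just outside, Sorcs3 at 599.481 kb was at 94.8%, Lpp at 95.1% and Foxp1 at 93.6%.

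The 10 longest genes lay between 89.7% and 95.1%. Ptprd, encoding a receptor phosphatase that organises synapses (chromosome 4, 75941237 to 78211742, 137 tiles), was at 92.9%, 92.6% and 91.1% in young and 92.1% and 92.4% in old libraries. Lrp1b, encoding a lipoprotein receptor (145 tiles), had the narrowest spread of the 10, at 90.5%, 90.9% and 90.6% in young and 90.6% and 90.7% in old libraries. Macrod2, encoding an ADP-ribose hydrolase, was highest of the 10 at 95.1%, and Nrxn3 lowest at 89.7%. Cntnap2, Lsamp, Dlg2, Csmd1, Fhit and Ctnna3 lay between them, at 92.2% to 94.2%. Among all 145 genes young replicate 3 was the lowest library in 117 and young replicate 2 the highest in 83. The same libraries were most often lowest and highest in 50 to 100 kb bodies, in 314 and 306 of 597.

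Age was then tested in each body by a quasi-binomial model of its summed reads, with a dispersion moderated as in limma and Benjamini-Hochberg adjustment over 2473 autosomal bodies with 5 or more tiles. Bodies were called at an adjusted p under 0.05 where the ages differed by at least 5 points. None of the 145 passed, with 0% called over all bodies, and the smallest adjusted p was 0.999. At an unadjusted p under 0.05 were 2 of the 145, against 0.647% of all bodies. By limma on the log2 odds 0 were called. There 0 of the 145 were at an unadjusted p under 0.05, against 13 of 2473 over all bodies. In the quasi-binomial model the number at such a p rose when young replicate 3 or young replicate 2 was left out, and again none passed. The share over all bodies was not compared in those fits. With all 5 libraries both models gave few small p-values over all bodies, so the lack of calls does not show that the ages are alike. The mean was higher in old sperm in 81 of 145 bodies, 55.9%, against 55.7% of all bodies. The age difference was within 1 point in 137 of the 145.

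The libraries of the ages did not overlap in 9 of the 145 bodies, 6.21%, against 11.0% of all bodies. Of the 9, 8 were higher in old sperm (against 6.75% of all bodies), among them Csmd3, Ccser1, Robo1, Thsd7b, Dpyd, Sugct and Malrd1, and 1 was lower (against 4.25%), Adgrl3. They are named after their values were seen. Csmd3, encoding a membrane protein with CUB and sushi domains, was at 89.8%, 90.3% and 89.4% in young and 90.9% and 91.0% in old libraries, a difference of 1.11 points. Malrd1, which regulates bile acid metabolism, differed by 1.08 points, at 91.9% ± 0.675 over the 3 young and 92.9% ± 0.195 over the 2 old libraries (SD). Csmd3 and Malrd1 were the bodies with an unadjusted p under 0.05, and neither passed after adjustment.

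Other bodies with large positive differences overlapped between the ages. Nrg3, encoding neuregulin 3, was at 89.0%, 90.3% and 87.8% in young and 90.1% and 90.6% in old libraries, a difference of 1.30 points. Ptprn2, a gene of secretory granules, differed by 1.24 points and Zbtb20, a transcriptional repressor gene, by 1.12, which turned to -0.494 with a minimum of 20 reads. Among those with a negative difference were Nav3, a gene of the neuron navigator family, at -0.922 points, Cdh13, the T-cadherin gene, at -0.804, and Nrxn3, at -0.775. Their young SDs were 0.992, 2.28 and 1.43 points. The Cdh13 difference was 0.150 without young replicate 2, -2.07 without young replicate 3 and 0.203 with a minimum of 5 reads.

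The largest negative differences, in Nrg1 and Sgcz, were those of 1 library. Both genes lie in a stretch of chromosome 8, from 29 to 44 Mb, and in both old replicate 1 stood apart from the other libraries. Levels in the rest of the stretch are not given here. Nrg1 (31807452 to 32891609) was at 87.7%, 88.4% and 85.6% in young replicates 1 to 3, 82.1% in old replicate 1 and 86.8% in old replicate 2. Sgcz, which encodes zeta-sarcoglycan (37517840 to 38661705), was at 92.3%, 92.9% and 90.7% in young, 86.6% in old replicate 1 and 92.0% in old replicate 2. The differences of -2.78 and -2.67 points became -0.433 and 0.0109 without old replicate 1. Old replicate 1 was the lowest library, by 5 points or more, in 18 of 54 tiles of Nrg1 and 31 of 84 of Sgcz, against 72 of 7077 tiles in the other very long bodies, 1.02%. These tiles were counted after the stretch was known. Without these genes the age difference of the class was 0.105 points.

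**Figure D4:**
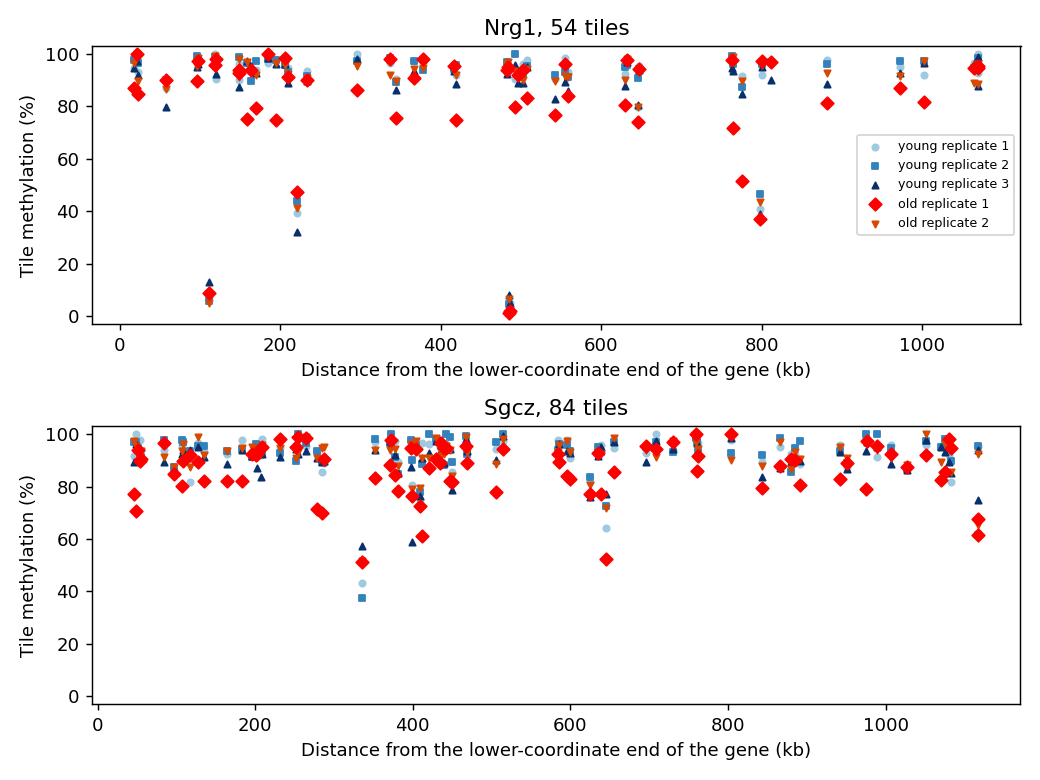
Methylation of each tile (y axis, percent) along the bodies of Nrg1 and Sgcz (x axis, distance from the end with the lower coordinate, kb), with old replicate 1 as red diamonds and the other 4 libraries as smaller marks. Old replicate 1 lies 5 points or more below all others in 18 of 54 tiles of Nrg1 and 31 of 84 of Sgcz, spread along both genes.

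By function, the members on each list moved in both directions and none passed. Of 41 adhesion molecules and synapse organisers, 26 were higher and 15 lower in old sperm, and the median body was at 92.7%; Lrp1b, Ptprd and Lsamp, at 93.3%, had most tiles. Of 14 channel and receptor genes, 5 were higher and 9 lower, with a median of 92.9%. Dpp10, encoding a potassium channel auxiliary subunit, was at 92.7%, and Kcnip4, encoding a potassium channel interacting protein, at 89.7%. Of 11 guidance and growth factor genes, 4 were higher and 7 lower, with a median of 92.2%. Robo2, a receptor for Slit guidance cues, was at 93.1%, Gpc5, a glypican gene, at 93.0% and Dcc, the netrin receptor gene, at 93.7%.

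The 15 common fragile site genes, of which 7 were higher and 8 lower, had a median of 93.9%, against 92.7% over all 145. The members with most tiles were Lrp1b at 90.7%, Macrod2 at 95.1% and Dlg2, a synaptic scaffold gene, at 92.2%. Fhit, the gene at a known human fragile site, was at 94.2%. Of 7 genes on the list of intracellular signalling enzymes, 3 were higher and 4 lower, with a median of 93.0%; Pde4d was at 89.0%, Galntl6, a glycosyltransferase gene, at 90.5% and Dgkb, a diacylglycerol kinase gene, at 91.9%. Of 8 transcription and RNA regulators, 3 were higher and 5 lower, with a median of 93.7%; the splicing factor gene Rbfox1 was at 93.8%, the histone deacetylase gene Hdac9 at 94.7% and Zbtb20 at 92.7%. The median age difference lay between -0.186 and 0.0690 points over the lists and was 0.0385 over all 145. Some genes are on more than 1 list, and 57 genes are on none.

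Single tiles gave no call either. Of 7215 tiles in very long bodies 0 passed the same model at an adjusted p under 0.05 and 10 points, with 0% called over all tiles, and the smallest adjusted p in the bodies was 1. At an unadjusted p under 0.05 were 166 tiles, 2.30%, against 2.76% of all tiles. By limma on the log2 odds 0 were called. There 296 of the 7215 were at an unadjusted p under 0.05, against 5210 of 134735 over all tiles. The number at such a p in the quasi-binomial model rose without young replicate 3 or young replicate 2, with 0 called each time. The share over all tiles was not compared in those fits. Of the 166, 80 were higher in old sperm, against 1.66% of all tiles, and 86 were lower, against 1.11%, which makes 1.11% and 1.19% of the tiles in the bodies. The ages did not overlap in 16.7% of the tiles, against 17.1% of all tiles.

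The tiles named here had the smallest p in each direction, so that their order of the ages is no support. In Sugct, encoding an enzyme of glutarate metabolism, a tile (chromosome 13, 17358001 to 17359000) was at 58.1%, 54.1% and 63.3% in young and 72.5% and 73.0% in old libraries, on 111 to 196 reads. In Marchf1, a ubiquitin ligase gene, a tile with 19 CpGs (chromosome 8, 65929001 to 65930000) was at 84.3% ± 0.807 over the 3 young and 89.6% ± 1.62 over the 2 old libraries (SD). Tiles in Erc2, Magi2 and Negr1 were higher in old sperm by 9.46, 7.69 and 3.97 points. In Mdga2, encoding a synaptic adhesion molecule, a tile (chromosome 12, 66984001 to 66985000) was at 85.1%, 89.0% and 93.8% in young and 76.2% and 76.7% in old libraries. In Nav2, of the neuron navigator family, a tile (chromosome 7, 49350001 to 49351000) that overlaps the start of Gm51448 was at 75.0% and 63.9%. Tiles in Dlgap1, a postsynaptic scaffold gene, and Exoc4 differed by -8.08 and -3.05 points. The Sgcz tile (chromosome 8, 38635001 to 38636000) was at 95.6%, 95.5% and 94.1% in young libraries and at 67.5% and 92.5% in old replicates 1 and 2, and its difference of -15.0 points was -2.53 without old replicate 1.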

How the data were processed

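The deposited files, per the file headers, list for each CpG cytosine and strand the coverage as a count of reads and the percent of reads called C and T. The lowest coverage in them is 5 reads. The submitters' processing notes name Trim Galore 0.4.3, Bismark 0.16.3, methylKit 1.4.0 and the mm10 (GRCm38) build; no source used here gives their settings or says whether duplicates were removed. Reads were recovered from percent and coverage, and both strands of a CpG were summed. Kept CpGs had 10 or more reads in each of the 5 libraries and stayed within the 99.9th coverage percentile of every library (975172, 7.46% of those listed), then summed over 1000-bp tiles with at least 3 CpGs. The upper limit is not part of the definition of the class. A tile had to lie wholly in the body. Body values are means over tiles, while body tests used summed reads. Groups came from the labels.

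Tests, with their thresholds, are given beside the results; the models were tested on simulated data. The tools were limma 3.58.1 in R 4.3.3, and matplotlib 3.10.9, scipy 1.17.1, numpy 2.4.6 and pandas 2.3.3 in Python 3.11.15. Named genes were the 10 longest, the 5 highest and lowest bodies, the 5 largest differences of each sign (all with at least 20 tiles), the 3 members of each list with most tiles, the 5 tiles of each direction with the smallest p, and genes at 29 to 44 Mb of chromosome 8. Some genes that this rule takes are not reported here. Other genes named, the starts, the split of bodies into equal parts, the low tiles and the printed sequences were chosen after values were seen. The members and lists were chosen with earlier results of these data known. RefSeq promoters (GRCm38.p6) matched 113 of 145 genes; 99.99% of listed CpGs inside them fell on a CG. Reads are not independent molecules, so floors cover counting error only.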

Additional observations from a re-analysis of the deposited data

How the results depend on the processing

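Neither tile nor body calls appeared under another coverage minimum (5 or 20 reads), no upper limit, 5 CpGs per tile, limma, no minimum difference or without the chromosome 8 stretch, and leaving out each library in turn gave 0 to 0 calls in both. The binomial model, which ignores the spread between libraries, called 20 tiles in very long bodies. Its share over all tiles is not given here, so the 20 are not read as a result about these bodies. The age difference of the class turned to -0.247 without both young replicates 2 and 3 and ranged from -0.390 to 0.343 with each library left out. The replicate block used young replicates 1 and 2 with both old libraries, so young replicate 3 was left out. Its age difference of the class, -0.390 points, is therefore the value without young replicate 3 and no separate check. Under the block the age difference of the gap was -0.00105 and both counts of calls were 0. The smallest adjusted p among the bodies in the moderated model was then 0.0659. Same-numbered libraries had correlations of 0.0388 and -0.0287. These mirror the values of differently numbered ones, -0.0388 and 0.0287, so no conclusion on pairing is drawn. The within-library gap was 0.279 points against genes of 20 to 50 kb, -1.01 against 100 to 200 kb, -0.878 at 20 reads, -1.66 with 5 CpGs per tile, -0.985 weighted by reads, -0.186 in tiles of 3 or 4 CpGs, and -0.597 to -0.482 with each library left out. Its age difference was 0.0126 weighted by reads and ranged from -0.196 to 0.0323 with each library left out. The gap in the share of tiles under 50% was 0.992 points with 5 CpGs per tile, 0.614 weighted by reads, 0.371 weighted to the CpG numbers of the long bodies, 0.362 at 20 reads, -0.0321 points in tiles of 3 or 4 CpGs, -0.504 against 20 to 50 kb and -0.00695 without the protocadherin models, an alternative chosen after seeing the data, as was the median over tiles, which gave a gap of -0.808; it ranged from 0.112 to 0.16 with each library left out. Age differences of named bodies changed sign in 5 of 90 settings: Zbtb20 at 20 reads (-0.494) and with 5 CpGs per tile (-0.166), Cdh13 at 5 reads (0.203), and, with a library left out, Cdh13 (-2.07 to 0.150) and Sgcz (-5.35 to 0.0109). Named tiles kept their direction in all 80. These tiles were picked by the smallest p, and the ages do not overlap in any of them. Leaving out a library could therefore not turn their direction, and the count is no support. Except where named, the cause of these changes was not tested. Body levels moved by more than the spread in 58 of 351 settings. Depth limits the bodies to 7.63% of their listed CpGs.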
